A study of Mus musculus with 3 samples.

Results

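The genes of the mitochondrial respiratory chain and ATP synthase were followed in single cells of gastrulating mouse embryos, with the transcripts of the mitochondrial genome set against those of the nucleus. Members were chosen by gene symbol alone: the mt-Nd, mt-Co, mt-Atp and mt-Cytb genes, and nuclear symbols that begin with Nduf followed by a, b, c, s or v, with Cox4 to Cox8, with Atp5 or with Uqcr, plus Sdha, Sdhb, Sdhc and Sdhd. They number 107 of the 32285 genes counted, 13 encoded by mitochondrial DNA and 94 by nuclear chromosomes. By role, 37 nuclear members belong to complex I, 4 to complex II, 8 to complex III, 20 to complex IV and 17 to complex V, and 8 are assembly factors of complex I. Of the mt-encoded members, 7 belong to complex I, 1 to complex III, 3 to complex IV and 2 to complex V.

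The libraries hold cells from normal, untreated embryos of the ARC mouse strain, from embryonic day 7.0 (E7.0), from E7.25 and, for the posterior region only, from E7.5. Where 3 values follow a gene or class they stand in that stage order. There is 1 library per stage, made with the 10x Genomics 3' chemistry, which counts unique molecular identifiers (UMIs) near the 3' end of polyadenylated RNA. Stage, library and, at E7.5, the dissected region therefore cannot be told apart. The number of embryos pooled in each library is not given in the sources used here.

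Complexes I to IV pass electrons from NADH and succinate to oxygen, and complexes I, III and IV pump protons across the inner mitochondrial membrane. Complex V (ATP synthase) uses that gradient to make ATP. Complexes I, III, IV and V are mosaics of subunits made inside the organelle and subunits imported from the cytosol. Complex II is built from nuclear subunits alone. Mitochondrial messenger RNAs are cut from long polycistronic transcripts, and 2 of them carry a pair of reading frames each, mt-Atp8 with mt-Atp6 and mt-Nd4l with mt-Nd4.

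Cells with at least 1000 detected genes and at most 15% mitochondrial UMIs were kept: 8008 of 10232 barcodes in the E7.0 library, 5254 of 6173 in the E7.25 library and 8623 of 11468 in the E7.5 posterior library. They held 108624264, 47913364 and 89037404 UMIs, with a median of 11238, 8258 and 9197 UMIs per cell. Between 8 and 23 cell barcodes were shared by any pair of libraries. Cells were clustered without the members, and a cluster took the name of a class from at least 3 of its markers, such as Ttr, Apoa1 and Afp for visceral endoderm-like cells. Different clusters hold most of a class in different libraries: the epiblast and streak-like cells lie mostly in clusters 4 and 8 in the first library, 6 in the second and 0 and 1 in the third. The mesoderm-like cells lie mostly in clusters 2 and 5 in the first library and in 7, 5 and 10 in the others. Cluster 3 holds most visceral endoderm-like cells in all 3 libraries.

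The nuclear promoters were searched for a pair of motifs. RefSeq (GRCm38.p6) gave a promoter of 300 bases, 250 before and 50 after the start, for 75 of the 94 nuclear members. The letters GCGCATG or their reverse complement CATGCGC, the core bound by NRF1, were found in 15 of the 75 (20%), against 4.04% of 27025 gene promoters. This core was chosen after seeing the data, in place of a longer form in which both strands overlap as a palindrome, found in 7 of the 75 (9.33%), against 0.977%. The letters CCGGAAG or their reverse complement CTTCCGG, a core bound by ETS factors such as GABPA, were found in 18 (24%), against 9.12%. Either core was found in 27 of the 75 (36%), against 12.5%, so most member promoters held neither in this window. All these backgrounds rest on 27025 promoters that were not limited to genes expressed in the libraries, whereas most nuclear members were expressed. The promoters were also picked by unlike rules. A member with several took the one nearest its GENCODE start, and a background gene took the first listed. Whether member promoters differ from those of other expressed genes was not tested. NRF1 and GABPA are known activators of nuclear respiratory genes. A match is a description of letters, not evidence of binding. Only the 250 bases before the start are printed, 5′ to 3′ on the gene's strand, with these motifs in capitals. Atp5k (chr5:108434400-108434649, minus strand) had the lowest ratio of E7.25 to E7.0 in complex V. It carries the NRF1 letters on both strands, overlapping in a palindrome that begins 50 bases before the RefSeq start. The GENCODE span of Atp5k, given further below, reaches into this window and covers most of the palindrome. Cox6b1 (chr7:30626115-30626364, minus strand) and Cox6b2 (chr7:4753095-4753344, minus strand) are paralogues of which the first dominated and the second varied with cell class. Cox7a1 (chr7:30183921-30184170, plus strand) had the largest rise in visceral endoderm-like cells.
Atp5k: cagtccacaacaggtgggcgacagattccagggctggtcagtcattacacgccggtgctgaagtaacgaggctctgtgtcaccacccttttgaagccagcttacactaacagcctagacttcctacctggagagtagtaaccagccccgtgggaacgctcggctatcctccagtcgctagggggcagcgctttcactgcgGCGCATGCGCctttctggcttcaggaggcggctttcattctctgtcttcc
Cox6b1: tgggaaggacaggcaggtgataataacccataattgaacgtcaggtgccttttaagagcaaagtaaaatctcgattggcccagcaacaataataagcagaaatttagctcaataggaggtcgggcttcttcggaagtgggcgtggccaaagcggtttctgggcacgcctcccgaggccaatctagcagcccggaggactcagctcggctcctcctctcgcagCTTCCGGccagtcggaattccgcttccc
Cox6b2: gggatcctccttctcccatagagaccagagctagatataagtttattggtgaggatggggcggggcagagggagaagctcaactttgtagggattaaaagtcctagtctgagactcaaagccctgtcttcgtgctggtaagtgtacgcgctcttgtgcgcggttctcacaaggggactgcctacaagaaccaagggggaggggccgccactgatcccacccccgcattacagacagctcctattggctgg
Cox7a1: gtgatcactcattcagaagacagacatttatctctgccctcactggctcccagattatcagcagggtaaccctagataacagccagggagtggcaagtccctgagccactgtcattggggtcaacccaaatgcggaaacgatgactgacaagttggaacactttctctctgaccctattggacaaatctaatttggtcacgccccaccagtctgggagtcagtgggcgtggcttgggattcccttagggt
The Cox6b1 motif is in its reverse-complement form and begins 28 bases before the start. Neither motif occurs in the windows of Cox6b2 and Cox7a1.

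The mt-encoded members made up a larger share of all UMIs at E7.5 posterior than at the earlier stages, while the nuclear members stayed near 3% in all 3 libraries. The 13 mt-encoded members held 2.56%, 2.8% and 3.83% of UMIs. The 94 nuclear members held 3.14%, 2.89% and 2.99%. The mt-encoded UMIs per nuclear UMI numbered 0.815, 0.966 and 1.28, so the nuclear genes had more UMIs in the first pair of libraries and fewer in the last. With 1 library per stage no test between stages was possible, and the exact 95% intervals given here cover counting error only.

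Between E7.0 and E7.25 the mt-encoded part differed by 0.13 on the log2 scale (95% interval 0.125 to 0.131), and the nuclear part by -0.12. The direction of the mt-encoded difference rests on scaling and on the cell filter: it was -0.07 with TMM factors, which moved all ratios of this comparison by -0.20, and -0.00334 among cells with at most 5% mitochondrial UMIs. It also differed by cell class, at -0.10 in epiblast and streak-like, -0.03 in mesoderm-like and 0.17 in visceral endoderm-like cells. From E7.25 to E7.5 posterior the mt-encoded part was 1.37-fold higher (0.46 on the log2 scale), and higher in each of these classes, by 0.66, 0.75 and 0.56. The nuclear part differed by 0.05 over the whole library and by 0.05, 0.09 and 0.09 in the classes. In each of the 3 classes the mt-encoded difference at the last step was larger than the nuclear one. The class make-up of the libraries also differed. Visceral endoderm-like cells, with the highest mt-encoded share of any class of at least 100 cells, numbered 722 of 8008, 879 of 5254 and 505 of 8623 cells. The part of class make-up in the whole-library ratios was not tested.

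**Figure D1:**
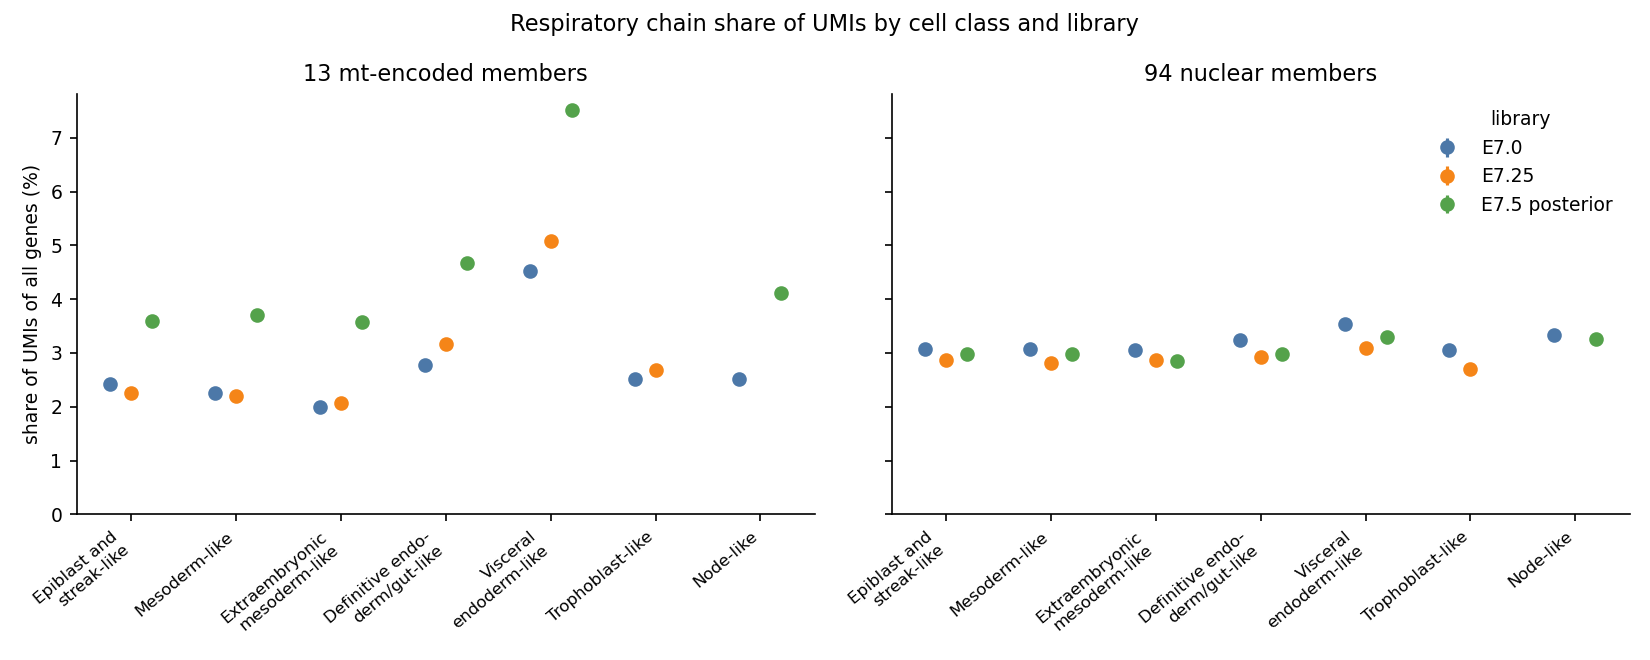
Share of the UMIs of all genes (%) held by the 13 mt-encoded members (left) and the 94 nuclear members (right), for each cell class and library with at least 100 cells; bars are exact 95% intervals, smaller than the points. The mt-encoded share ranges from 2% in extraembryonic mesoderm-like cells at E7.0 to 7.52% in visceral endoderm-like cells at E7.5 posterior, while the nuclear share stays between 2.7% and 3.54%.

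By complex, complex V had the largest mt-encoded ratio at the last step. Its summed level, in CPM (UMIs scaled to a total of 1e6), was 4450, 4392 and 7112, a log2 ratio of 0.70 between the last pair. For complex IV the levels were 11049, 12809 and 17644 CPM (0.46), for mt-Cytb of complex III 2962, 3058 and 4146 CPM (0.44), and for complex I 7123, 7695 and 9420 CPM (0.29). The nuclear subunits moved less at this step, from -0.07 for complex II to 0.12 for complex V. In complex IV, which transfers electrons to oxygen, there were 1.32, 1.78 and 2.29 mt-encoded UMIs per nuclear UMI. In complex V the same ratio was 0.445, 0.485 and 0.724, so the nuclear subunits held most UMIs of that complex in all 3 libraries. Complexes I and III lay between, at 0.808, 0.905 and 1.13 and at 0.873, 0.902 and 1.26. Complex V also had the largest mt-encoded ratio at the last step within each class, 0.86 in epiblast and streak-like, 0.95 in mesoderm-like and 0.71 in visceral endoderm-like cells.

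**Figure D2:**
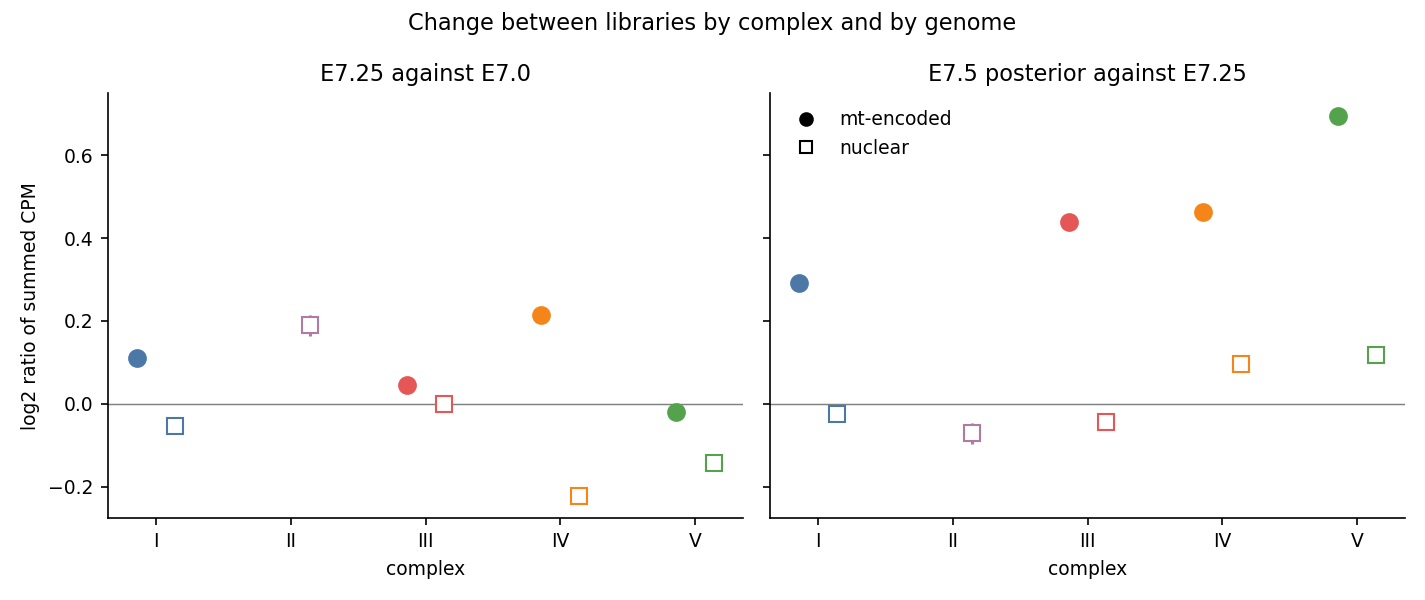
Log2 ratio of the summed CPM between consecutive libraries for each complex, with mt-encoded subunits as filled circles and nuclear subunits as open squares; complex II has no mt-encoded subunit, and bars are exact 95% intervals of counting error. At E7.5 posterior against E7.25 every mt-encoded sum is at 0.29 or above, and the nuclear sums lie between -0.07 and 0.12.

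In the whole libraries, single mt-encoded genes did not move together. The level of mt-Co3, a core subunit of complex IV, was 4201, 5746 and 7811 CPM, higher at each later stage. The level of mt-Atp6, the proton channel subunit of ATP synthase, was 4287, 4333 and 6988 CPM, with the first pair of libraries close together. The level of mt-Nd1 of complex I was 1964, 2748 and 2731 CPM, higher at the first step and close together at the last. That order is of the whole libraries: in epiblast and streak-like cells mt-Nd1 stood at 1885, 2132 and 2534 CPM and in mesoderm-like cells at 1782, 2092 and 2669 CPM, higher at both steps. The 2 genes that share an RNA with a partner had their lowest level at E7.25: mt-Nd4l at 523, 152 and 428 CPM and mt-Atp8 at 163, 59.4 and 123 CPM. Their partners mt-Nd4 (1835, 2082 and 2489 CPM) and mt-Atp6 did not have that dip in the whole libraries. Within epiblast and streak-like cells both did stand lowest at E7.25, mt-Nd4 at 1729, 1701 and 2344 CPM and mt-Atp6 at 4042, 3585 and 6500.2 CPM, by less than mt-Nd4l (490.2, 142 and 425 CPM) and mt-Atp8 (164, 64.5 and 129 CPM). Of the other complex I genes, mt-Nd3 (454, 388 and 661 CPM), mt-Nd5 (508, 432 and 612 CPM) and mt-Nd6 (43.8, 24.3 and 49.9 CPM) also stood lowest at E7.25, and mt-Nd2 (1796, 1868 and 2450 CPM) did so within epiblast and streak-like cells (1682, 1494 and 2283 CPM) but not in the whole library. In complex IV, mt-Co2 stood at 3805, 4135 and 5567 CPM and mt-Co1 at 3042, 2928 and 4265 CPM, the latter lowest at E7.25. Both had their highest level in the last library. Within epiblast and streak-like cells mt-Co1 (3048, 2496 and 4182 CPM), mt-Co2 (3492, 3178 and 5101 CPM) and mt-Cytb (2784, 2385 and 3770 CPM) also stood lowest at E7.25. Of the mt-encoded members only mt-Co3 (3879, 4666 and 7308 CPM) and mt-Nd1 did not in that class. In visceral endoderm-like cells mt-Co2 and mt-Cytb were higher at E7.25 than at E7.0. As a share of the pair, mt-Nd4l held 22.2%, 6.8% and 14.7% of UMIs, and mt-Atp8 held 3.67%, 1.35% and 1.74%. Each pair overlaps, by 7 bases in the first and 43 in the second, and the deposited counts do not show from which end of the shared RNA a UMI came.

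Among the nuclear members, 87 of 94 reached 20 CPM at E7.0 or E7.25 and 86 reached it at E7.25 or E7.5 posterior. Of the 87, 3 were at least 1.5-fold higher at E7.25 than at E7.0 and 11 at least 1.5-fold lower. Of all 5583 nuclear genes at that level, 12.8% were higher and 5.98% lower by as much. The median member stood at -0.10 on the log2 scale and the median of all these genes at 0.12. From E7.25 to E7.5 posterior 5 members were higher and 2 lower, against 4.91% and 9.97% of all genes. With TMM factors 1 member was higher and 16 lower at the first step, and 9 were higher and 1 lower at the second. TMM factors moved every ratio by -0.20 at the first step and 0.12 at the second. The share of all genes past 1.5-fold under TMM factors was not counted, so these counts have no background beside them. From E7.0 to E7.5 posterior 0 members were higher and 0 lower, against 2.29% and 2.22%. At 2-fold, 1 member was higher and 3 lower at the first step, against 2.85% and 1.49% of all genes, and 2 were higher and 0 lower at the second, against 0.961% and 3.06%. Over the whole interval 0 members reached 2-fold in either direction, against 0.587% and 0.909%. Each of the 86 members measured in both outer libraries thus differed by less than 1.5-fold between them.

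The members lowest at E7.25 encode small accessory subunits. Atp5k (subunit e of ATP synthase, chr5:108433244-108434448) stood at 729, 272 and 650.1 CPM, a log2 ratio of -1.42 and then 1.26. Ndufb1-ps, counted under its pseudogene symbol, stood at 248, 92.1 and 218 CPM. How the authors counted reads shared by near-identical copies is not given in the sources used here, so its level is uncertain. Cox7c, a small subunit of complex IV, stood at 1615, 756 and 1159 CPM, and Ndufa4, a complex IV subunit named after complex I, at 755, 426 and 742 CPM. Ndufa1 and Atp5md completed the 6 lowest, at -0.90 and -0.70. All 6 were higher again in the last library.

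The members highest at E7.25 included catalytic and core subunits. Uqcrc1, a core protein of complex III (chr9:108936633-108949623), stood at 156, 341 and 190.1 CPM, a log2 ratio of 1.13 and then -0.84. Ndufv1, which holds the NADH-binding site of complex I, stood at 109, 180.2 and 115 CPM. Cox4i1, the common isoform of a large nuclear subunit of complex IV, stood at 788, 1211 and 867 CPM. Ndufa9, Sdha and Ndufs7 followed, at 0.47, 0.47 and 0.44. TMM factors lower every ratio of this step by 0.20, which leaves these 6 above 0. Other subunits differed less: Ndufs1 stood at 48.5, 56.4 and 53.3 CPM, Uqcrfs1 at 166, 159 and 147 CPM, Cox5a at 708, 585 and 668 CPM, Atp5a1 at 646, 781 and 701 CPM and Atp5b at 865, 1104 and 972 CPM. Atp5k differed by -1.42, -1.45 and -1.42 in epiblast and streak-like, mesoderm-like and visceral endoderm-like cells, and Uqcrc1 by 1.17, 1.14 and 1.12, alike in the 3 classes. Ndufa9 differed by 0.60, 0.48 and 0.20 and Ndufs1 by 0.26, 0.01 and 0.15, and so varied more between classes.

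Short members, like other short genes, were more often lower at this step. The median transcript of the 87 members was 875 bases long, against 2676 for all nuclear genes at that level. Of members shorter than 600 bases, 12 of 18 were lower at E7.25 than at E7.0, and of those from 600 to under 1000 bases, 24 of 31. Of members from 1000 to under 2000 bases, 11 of 28 were lower, and of those of 2000 bases or more, 5 of 10. Among nuclear genes that are no member, 69.8%, 60.4%, 48.6% and 30.5% were lower in these 4 ranges. The shortest members, at 66.7%, thus lay near the share of other short genes. Members lay above the share of other genes from 600 to under 1000 bases (77.4%) and at 2000 or more (50%). From 1000 to under 2000 bases they lay below it (39.3%). The member medians in these 4 ranges were -0.18, -0.21, 0.07 and -0.06, with no steady order. Nuclear genes that are no member had medians that climbed with length, -0.35 below 600 bases, -0.08 from 600 to under 1000, 0.02 from 1000 to under 2000 and 0.19 at 2000 or more. Across genes, which are not independent replicates and share the libraries, the log2 ratio and log2 length had a Pearson r of 0.277 over the 87 members and 0.24 over 5494 other genes. The part of length in the difference at E7.25 was not tested.

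**Figure D3:**
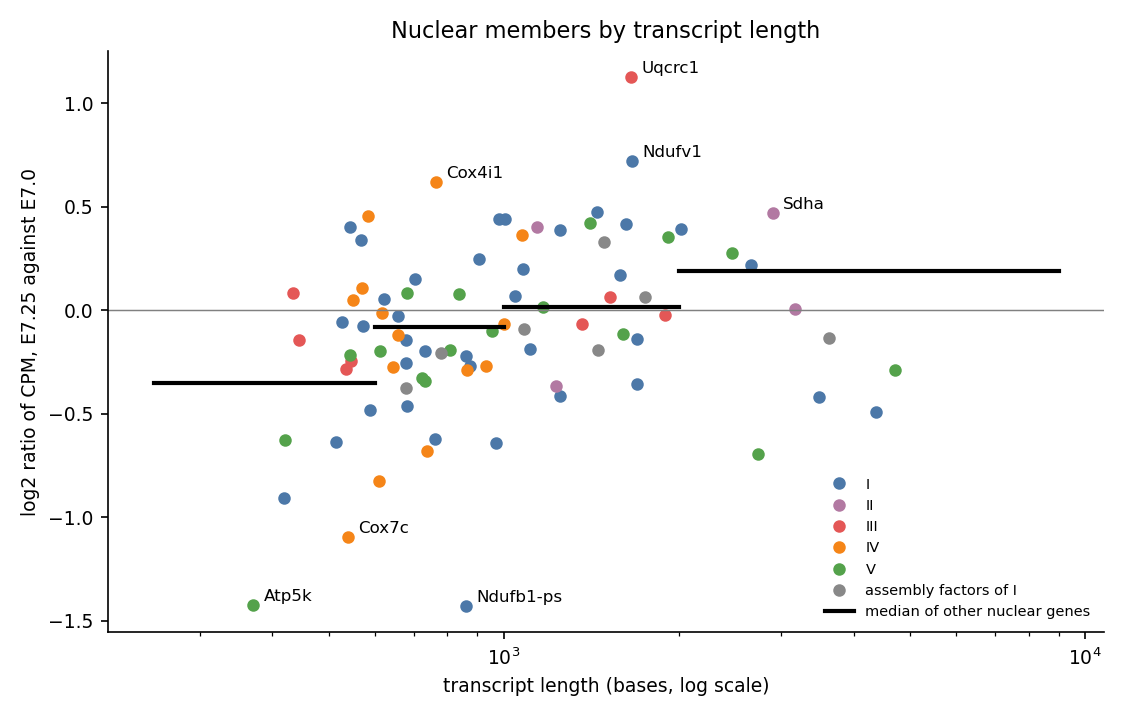
Log2 ratio of CPM at E7.25 against E7.0 for the 87 nuclear members at 20 CPM or more, by transcript length in bases on a log axis, coloured by complex; black lines are medians of the nuclear genes that are no member in 4 length ranges. Atp5k, Ndufb1-ps and Cox7c lie below -1, Uqcrc1 lies above 1, and the black lines climb from -0.35 to 0.19.

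Visceral endoderm is the extraembryonic epithelium that absorbs and processes maternal nutrients around the epiblast. The mt-encoded share was higher in visceral endoderm-like than in epiblast and streak-like cells in every library: 4.53%, 5.08% and 7.52% against 2.42%, 2.26% and 3.59%. The folds were 1.87, 2.25 and 2.1. The nuclear share was 1.15, 1.08 and 1.11 times that of epiblast and streak-like cells. Class differences were tested over the 3 libraries with edgeR's quasi-likelihood test, the library as a block and Benjamini-Hochberg adjustment over all genes tested. A p-value here tests the mean class difference over 3 libraries of different stages, against a spread that edgeR estimates in part from other genes.

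In this test 12 of 13 mt-encoded members were higher in visceral endoderm-like cells, 36 of 90 nuclear members tested were higher and 23 lower. Of all 13182 genes tested, 35.1% were higher and 37.6% lower, so the nuclear counts lie near the background for higher and below it for lower. The median log2 fold change was 0.99 for mt-encoded and 0.06 for nuclear members, against -0.06 for all genes. The largest mt-encoded value was that of mt-Co2, a core subunit of complex IV, at 3492, 3178 and 5101 CPM in epiblast and streak-like cells and 7295, 7774 and 11673 CPM in visceral endoderm-like cells (log2 1.12, SE 0.08, adjusted p = 8.5e-08, edgeR). The groups did not overlap. The smallest among those called was mt-Nd5 (0.29, SE 0.07, adjusted p = 0.0022, edgeR). mt-Atp8 did not pass (0.09, SE 0.08, adjusted p = 0.33, edgeR). Without the library as a block, 20 members of either genome were higher and 11 lower in place of 48 and 23, and without the E7.5 posterior library 15 were lower.

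By complex, 7 of 7 mt-encoded members of complex I, 1 of 1 of complex III, 3 of 3 of complex IV and 1 of 2 of complex V were higher. Among nuclear members, 15 of 37 in complex I were higher and 8 lower, 3 of 4 in complex II higher and 1 lower, 4 of 8 in complex III higher and 0 lower, 7 of 16 tested in complex IV higher and 5 lower, and 5 of 17 in complex V higher and 5 lower. Uqcrq, a small subunit of complex III, stood at 606, 600 and 554 CPM in epiblast and streak-like cells and 1425, 1184 and 1196 CPM in visceral endoderm-like cells (log2 1.05, SE 0.07, adjusted p = 3.8e-08, edgeR). The complex III core subunits Uqcrc1 and Uqcrfs1 did not pass, at -0.05 and -0.17. Ndufb11, an accessory subunit of complex I encoded on the X chromosome (chrX:20615326-20617619), stood at 159, 184 and 166 CPM against 379, 360 and 366 CPM (1.07, SE 0.07, adjusted p = 4.4e-08, edgeR). Within complex II, Sdha, the flavoprotein, rose by 0.37 (SE 0.07, adjusted p = 6.7e-04, edgeR) and Sdhb, the iron-sulfur subunit, fell by 0.47 on the log2 scale. Within complex V, Atp5b, the catalytic beta subunit, fell by 0.35 on the log2 scale, and Atp5a1 did not pass at 0.14. Of the 8 assembly factors of complex I, 4 were lower, among them Ndufaf2 at -0.57 and Ndufaf1 at -0.52, and 2 higher.

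Core and accessory subunits of 1 complex moved in both directions in visceral endoderm-like cells. In complex I, Ndufs1, the large iron-sulfur subunit, rose by 0.43 and Ndufs7 by 0.29, while Ndufv1, which binds NADH, stood at -0.20 and Ndufs4, an accessory subunit, at -0.51. All 4 passed the edgeR test. The accessory subunit Ndufa7 had the lowest value of complex I, at 500.4, 524 and 507 CPM in epiblast and streak-like cells and 356, 337 and 329 CPM in visceral endoderm-like cells (-0.64, SE 0.07, adjusted p = 2.8e-06, edgeR). In complex IV, Cox5a rose by 0.49 and Cox4i1 by 0.36, and Cox7c stood at -0.45. The summed nuclear subunits of complex III were higher in each library, by 0.55, 0.41 and 0.48 on the log2 scale. That is the largest such difference among the nuclear parts of the 5 complexes. The sum holds Uqcrq, the highest of its members at 1.05. The median of the 8 members was 0.09, and 4 of them were not called.

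The visceral endoderm-like class also holds cells with little mitochondrial RNA. Cells under 0.5% mitochondrial UMIs made up 17.6%, 0.683% and 15% of it. Cluster 18 of this class had 253 cells, a median of 3014 UMIs and 11 markers of visceral endoderm among its top 100 genes. Its mt-encoded share was 0.437% in the E7.0 library and its nuclear share 4.05%. In cluster 3, the main one, the mt-encoded share was 5%, 5.86% and 8.46% in the 3 libraries and the nuclear share 3.54%, 3.11% and 3.27%. With cells under 0.5% left out, 45 members were higher and 24 lower, and the share of all genes was not counted for this setting. An unnamed cluster of 583 cells, number 14, had a median of 3844 UMIs per cell, an mt-encoded share of 1.71%, 0.591% and 0.627% and a nuclear share of 3.48%, 3.27% and 3.48%. What sets these cells apart was not tested.

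Mesoderm-like cells, which leave the streak, had almost the same mt-encoded share as epiblast and streak-like cells: 2.25%, 2.2% and 3.71% against 2.42%, 2.26% and 3.59%. In the edgeR test 21 of 90 nuclear members were higher and 15 lower, and 0 of 13 mt-encoded members were higher and 2 lower. Of all 14385 genes tested 24.4% were higher and 23.9% lower, so the nuclear shares of 21 and 15 in 90 lie at or below the background. The 2 mt-encoded genes were mt-Co1 (-0.14, SE 0.03, adjusted p = 0.0028, edgeR) and mt-Nd5 (-0.10, SE 0.03, adjusted p = 0.031, edgeR). Without the E7.5 posterior library 12 members were higher and 18 lower, in place of 21 and 17. Without the library as a block, 2 were higher and 1 lower, and without the filter on low counts 30 were lower. These alternative counts, too, have no share of all genes beside them. mt-Nd5 no longer passed with predicted doublets left out (adjusted p = 0.054, edgeR).

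By complex, 6 of 17 nuclear members of complex V were higher and 1 lower, and 3 of 8 assembly factors of complex I were higher and 1 lower. In complex III the count was 1 of 8 higher and 3 lower, in complex IV 4 of 16 tested higher and 3 lower, and in complexes I and II as many were higher as lower, 6 and 6 of 37 and 1 and 1 of 4. Sdha rose and Sdhb (-0.17) fell, the same pair that moved apart in visceral endoderm-like cells.

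The mesoderm-like differences of size lay in a few genes. Cox4i2, the minor isoform of Cox4, stood at 5.27, 7.99 and 6.21 CPM in epiblast and streak-like cells and 10.6, 20 and 14.4 CPM in mesoderm-like cells (log2 1.18, SE 0.09, adjusted p = 4.7e-06, edgeR). Ndufb11 stood at 212, 262 and 218 CPM in mesoderm-like cells (0.46, SE 0.04, adjusted p = 4.7e-06, edgeR). Cox7a1 had the lowest value, at 11.7, 6.96 and 9.13 CPM in epiblast and streak-like cells and 6.97, 4.44 and 4.73 CPM in mesoderm-like cells (-0.78, SE 0.11, adjusted p = 2.0e-04, edgeR). Ndufaf3, an assembly factor of complex I, fell by 0.61 on the log2 scale and Cox7c by 0.31. Ndufv3 (-0.28), Ndufa6 (-0.24), Ndufb1-ps (-0.19) and Cox7a2l (-0.15) also fell. Smaller rises included Ndufaf4 at 0.28, Uqcrb at 0.23, Ndufb10 at 0.21 and Sdha at 0.21. The rises of Ndufaf5 (0.32) and Cox6b2 (0.25) passed with edgeR but not with DESeq2 (adjusted p = 0.14 and 0.12).

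**Figure D4:**
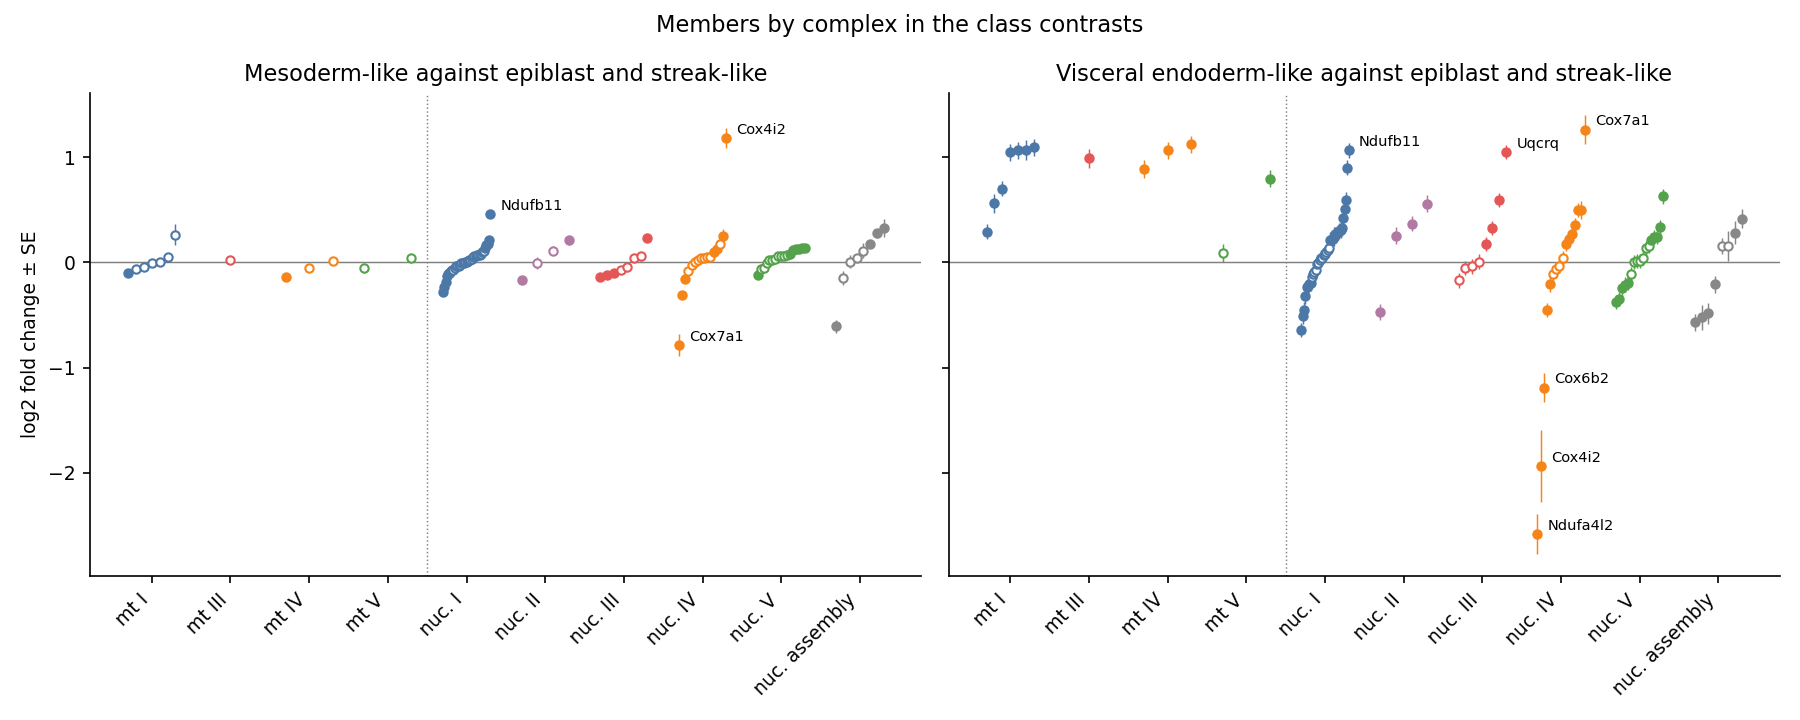
Log2 fold change with its SE of each tested member, by complex and by genome, in mesoderm-like (left) and visceral endoderm-like cells (right) against epiblast and streak-like cells, over 3 libraries; filled points passed the edgeR test and open points did not. In visceral endoderm-like cells the mt-encoded points of complexes I, III and IV lie at 0.29 or above, and Ndufa4l2, Cox4i2 and Cox6b2 lie below -1.

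The shares of paralogues in complex IV differed between cell classes. Cox4i1 held nearly all UMIs of the Cox4 pair, and Cox4i2 held 0.7%, 0.7% and 0.737% in epiblast and streak-like cells, 1.39%, 1.75% and 1.66% in mesoderm-like cells and 2.39%, 2.76% and 2.85% in extraembryonic mesoderm-like cells. In visceral endoderm-like cells it held 0.0364%, 0.229% and 0.166%, on 3, 28 and 8 UMIs. Cox4i2 is known as an oxygen-regulated isoform. Ndufa4l2, the paralogue of Ndufa4, was likewise highest in extraembryonic mesoderm-like cells: it held 3.2%, 4.41% and 2.61% of the pair in epiblast and streak-like cells, 5.37%, 7.62% and 4.36% in extraembryonic mesoderm-like cells and 0.331%, 0.944% and 0.42% in visceral endoderm-like cells. In the edgeR test against epiblast and streak-like cells, visceral endoderm-like cells had lower Ndufa4l2 (-2.58, SE 0.19, adjusted p = 9.6e-08) and lower Cox4i2 (-1.93, SE 0.34, adjusted p = 2.4e-04).

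Cox6b2, known from testis, held 3.05%, 4.18% and 3.92% of the Cox6b pair in the whole libraries and 1.3%, 1.79% and 1.45% in visceral endoderm-like cells, where it was lower in the edgeR test (-1.19, SE 0.14, adjusted p = 7.3e-06). Cox7a1, the heart and muscle isoform, went the other way. It held 1.12%, 0.667% and 0.892% of its set of 3 in epiblast and streak-like cells and 3.31%, 1.57% and 1.89% in visceral endoderm-like cells (log2 1.26, SE 0.13, adjusted p = 2.9e-06, edgeR). The higher level was not particular to visceral endoderm-like cells, where Cox7a1 stood at 34.7, 16.6 and 19.2 CPM. It stood at 16.5, 15.7 and 11.8 CPM in definitive endoderm and gut-like cells. In node and notochord-like cells it stood at 20.2 CPM at E7.0 and 21.2 CPM at E7.5 posterior. The windows printed for Cox6b2 and Cox7a1 have neither motif. The 3 genes of the ATP synthase c subunit, which encode one mature protein, shared their UMIs evenly over stages: Atp5g2 held 43.6%, 43% and 43% in the libraries. In visceral endoderm-like cells Atp5g3 held 22.6%, 21.7% and 25.1%, against 15.3%, 14.2% and 14.9% in epiblast and streak-like cells. Tissue-restricted Cox6a2 and Cox8b were at 0 UMIs at E7.0, which allows up to 0.0118% of the Cox6a pair and 0.00276% of the Cox8 set.

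**Figure D5:**
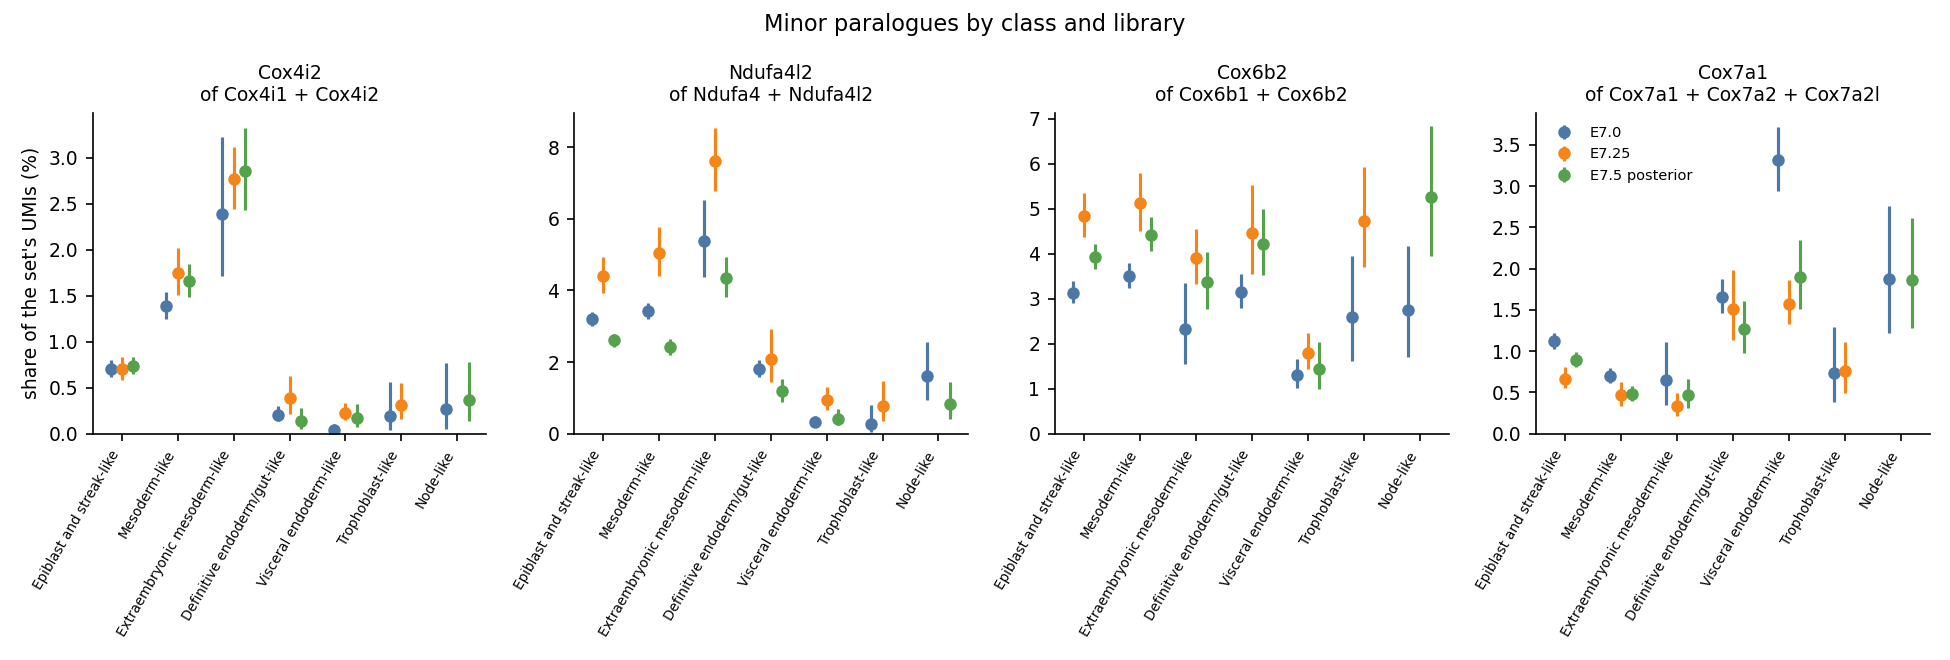
Share (%) of the UMIs of a paralogue set held by Cox4i2, Ndufa4l2, Cox6b2 and Cox7a1, for each class and library with at least 100 cells; bars are exact 95% intervals of counting error. Cox4i2 and Ndufa4l2 are highest in extraembryonic mesoderm-like cells, and Cox7a1 is highest in visceral endoderm-like cells at E7.0, at 3.31%.

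Related genes outside the members were followed as lists. Of 22 genes of mitochondrial DNA expression tested in visceral endoderm-like cells, 6 were higher and 10 lower, where 35.1% of all genes tested were higher and 37.6% lower. Lrpprc, which stabilises mitochondrial messenger RNA, rose by 0.86 (SE 0.09, adjusted p = 1.7e-06, edgeR), and Tfam, which packages and transcribes mitochondrial DNA, fell by 0.54 on the log2 scale (adjusted p = 5.6e-05, edgeR). Of 78 mitochondrial ribosomal proteins, 14 were higher and 33 lower. Of 13 enzymes of the tricarboxylic acid cycle, 6 were higher and 1 lower. In mesoderm-like cells the same 3 lists had 2 higher and 2 lower, 15 and 19, and 6 and 2, where 24.4% of all genes tested were higher and 23.9% lower. Of 36 assembly factors outside the members, 12 were higher and 8 lower in visceral endoderm-like cells and 8 and 4 in mesoderm-like cells. Of 8 biogenesis regulators tested the counts were 3 and 3, then 2 and 0. Of 5 electron carriers they were 3 and 1, then 2 and 1. Of 9 genes of pyruvate entry and lactate they were 3 and 3 in both classes. Between libraries, 0 of 78 mitochondrial ribosomal proteins were 1.5-fold higher at E7.25 than at E7.0 and 3 lower, against 12.8% and 5.98% of all genes.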

How the data were processed

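The authors deposited unscaled UMI counts per gene and barcode; per the file headers the matrices come from Cell Ranger 6.0.1. The genome build is not given in the sources used here; positions come from GENCODE M21 (GRCm38). The members and lists were chosen with earlier results of these data known. Cells with at least 1000 genes and at most 15% mitochondrial UMIs were kept, doublets included. Without the members, mitochondrial genes and related lists, 2000 variable genes, 30 components and 15 neighbours gave 20 Leiden clusters at resolution 1 (scanpy 1.11.5, leidenalg 0.10.2), each named from its top 100 genes. UMIs were summed per library or class of at least 100 cells and scaled to CPM over all genes. Intervals are exact at 95% (Poisson, conditional binomial or Clopper-Pearson). Class contrasts used edgeR 4.0.16 with TMM factors and filterByExpr, in R 4.3.3; DESeq2 1.42.0 was an alternative. On simulated counts, edgeR found 66.7% of 1.5-fold and 86.7% of 2-fold changes for mesoderm-like cells, and 58.8% and 75% for visceral endoderm-like cells. The simulation gave each gene 1 mean level in all libraries, without stage differences. Its changed genes were drawn from all genes tested, so these rates are not those of the members. Named genes were the mt-encoded members, a set of catalytic and large subunits, paralogues, the 6 highest and lowest at 50 CPM or more between libraries, and the 8 highest and lowest among those past an adjusted p of 0.05 per class contrast. Totals without mitochondrial UMIs, TMM factors, other cell filters, thresholds, clusterings, fits and libraries left out were tried as alternatives. Totals of 47913364 to 108624264 UMIs per library make counting error small, but no spread between embryos is known. The NRF1 core searched is a shorter form of one tried first, chosen after seeing the data.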

Additional observations from a re-analysis of the deposited data

Results flagged for a closer look

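The mt-encoded part differed between classes in opposite directions across libraries, and the difference of these differences was not tested. For mesoderm-like against epiblast and streak-like cells, its log2 difference was -0.107 in the E7.0 library, -0.0398 in the E7.25 library and 0.0465 in the E7.5 posterior library. Between E7.0 and E7.25 it was -0.0958 in epiblast and streak-like, -0.029 in mesoderm-like and 0.168 in visceral endoderm-like cells. Each group is 1 library.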

How the results depend on the processing

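The mt-encoded difference between E7.0 and E7.25 (0.13) was -0.07002 with TMM factors and -0.00334 at most 5% mitochondrial UMIs. It was 0.131 on totals without mitochondrial UMIs, 0.117 at most 10%, 0.146 with no limit, 0.102 at 2000 genes or more, 0.121 without cells under 0.5% and 0.124 without the highest doublet scores. From E7.25 to E7.5 posterior (0.455) it was 0.471 without mitochondrial UMIs in the total, 0.571 with TMM factors, 0.442 at most 10%, 0.474 at most 5%, 0.482 at 2000 genes and 0.469 without cells under 0.5%. The nuclear part at the first step (-0.12) was -0.114 without mitochondrial UMIs in the total, -0.316 with TMM factors and -0.121 at most 5%. At the last step (0.05) it was 0.0656, 0.166 and 0.0543 in that order, 0.0456 at 2000 genes, 0.0464 without cells under 0.5% and 0.0564 without the highest doublet scores. TMM factors moved ratios by -0.20 at the first step and 0.12 at the last. Nuclear members at least 1.5-fold higher at E7.25 (3) numbered 1 with TMM factors and 1 at 2-fold, and those lower (11) numbered 16 and 3. At the last step, those higher (5) numbered 9 with TMM factors and 2 at 2-fold, and those lower (2) numbered 1 and 0. The share of all genes under TMM factors was not counted. The cause of these moves was not tested, apart from the stricter fold.

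The class contrasts pair classes of 1 library. Without that replicate block, mesoderm-like members numbered 2 higher and 1 lower in place of 21 and 17, and visceral endoderm-like members 20 and 11 in place of 48 and 23. Without a filter on low counts, 30 mesoderm-like members were lower. With 1 library left out, mesoderm-like members numbered 12 to 21 higher and 15 to 25 lower, and visceral endoderm-like members 38 to 47 and 15 to 18. Calls over all genes were not counted under these alternative fits, so the member counts have no background beside them. Leaving out cells under 0.5% mitochondrial UMIs in the class contrasts was chosen after seeing the data. Depth limits Cox4i2 in visceral endoderm-like cells, at 3 to 28 UMIs a library.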
